A study of Homo sapiens with 4 samples.

Results

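The proteasome genes were taken as the rows of the count table whose symbol begins with PSM, a letter from A to G, and a digit. This rule found 49 of 18449 gene symbols. Of these, 47 encode parts or partners of the proteasome, and *PSMC3IP* and *PSME3IP1* encode proteins that are named for binding a proteasome subunit and are not counted as parts of it here. The 47 genes comprised 7 constitutive 20S α subunits, 7 constitutive 20S β subunits, 3 immunoproteasome subunits, 2 tissue-restricted core subunits, 6 19S ATPases, 11 other 19S subunits, 6 assembly chaperones, and 5 activators or inhibitors. *PSMD10*, a further chaperone whose symbol fits the rule, had no row in the count table and could not be analysed. The authors removed genes of the sex chromosomes and repeatedly counted genes, so a missing row does not show a lack of expression.

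BT-16 and CHLA-266 are established cell lines of AT/RT-MYC, a subtype of a malignant embryonal tumor of the nervous system. Untreated cells of each cell line were compared with cells treated once on consecutive days with 1 µM doxorubicin (doxo), 5 µM etoposide (eto), and 1 µM vincristine (vin). By the study's account most treated cells died, and resistant cells grew again several weeks later. Its methods name the harvest for RNA sequencing after this regrowth, and the paper calls the treated cells therapy-resistant. The day of harvest is not given. Doxo and eto block topoisomerase II, and vin blocks microtubule assembly. There was 1 library per cell line and condition, the 2 cell lines were the replicates of a condition, and the surviving treated cells of a cell line were sequenced as 1 bulk sample.

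The proteasome breaks down proteins that carry ubiquitin. Its 20S core is a barrel of outer α rings and inner β rings, in which PSMB5, PSMB6, and PSMB7 hold the catalytic sites. The 19S particle caps the barrel, binds and unfolds the substrate with a ring of ATPases, and removes ubiquitin. Interferon exchanges the catalytic subunits for PSMB8, PSMB9, and PSMB10, which form the immunoproteasome and supply peptides for MHC class I. Chaperones of the PSMG family and 3 proteins with a PSMD symbol assist the assembly, and the activators PSME1 to PSME4 can open the barrel in place of the 19S particle. Most subunit genes share a common control by NFE2L1 (NRF1), a transcription factor that is released when proteasome capacity is short and binds antioxidant response elements (ARE).

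Promoter sequences are shown because 2 elements that bear on this biology, the interferon-stimulated response element (ISRE) and the ARE, occur in them. In RefSeq windows of GRCh38.p14 that run from 250 bases before to 50 bases after a start, 43 of the 49 genes had a window, and 41 of the 47 proteasome genes had 50 windows. No window was held for *PSMA7*, *PSMB1*, *PSMB6*, *PSMB7*, *PSMD4*, and *PSMG3*. The ISRE core (GAAANNGAAA on either strand) was found in 7 of these 50 windows (14%) and in 3.57% of all 35116 windows. The following 5 windows hold the same 10 bases of this core, read on one strand or the other, which are set in capitals, and each sequence is written 5′ to 3′ on the strand of its gene.

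PSMB8, chr6:32844023-32844076, minus strand: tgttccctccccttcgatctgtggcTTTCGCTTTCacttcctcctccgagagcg

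PSMB10, chr16:67936837-67936896, minus strand: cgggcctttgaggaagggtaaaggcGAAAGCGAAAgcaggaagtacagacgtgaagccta

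PSME1, chr14:24136174-24136218, plus strand: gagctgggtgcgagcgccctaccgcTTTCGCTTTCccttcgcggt

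PSME2, chr14:24146604-24146663, minus strand: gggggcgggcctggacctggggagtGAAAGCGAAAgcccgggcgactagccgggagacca

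PSMG4, chr6:3258889-3258948, plus strand: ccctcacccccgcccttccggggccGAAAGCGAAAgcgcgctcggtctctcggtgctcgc

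These stretches belong to a pair of immunoproteasome subunits, to both subunits of the interferon-inducible activator, and to an assembly chaperone. The ARE core (TGACNNNGC on either strand) was found in 15 of the 50 windows (30.0%) and in 13.3% of all windows. The following 4 stretches hold it in capitals and belong to the genes with an ARE core whose log2 fold change after treatment was lowest.

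PSMG2, chr18:12658674-12658732, plus strand: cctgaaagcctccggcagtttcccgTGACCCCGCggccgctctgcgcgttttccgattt

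PSMG1, chr21:39183601-39183659, minus strand: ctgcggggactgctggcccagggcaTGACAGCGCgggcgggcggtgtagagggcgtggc

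PSMB3, chr17:38752612-38752670, plus strand: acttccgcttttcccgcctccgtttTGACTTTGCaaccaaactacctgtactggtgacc

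PSMA4, chr15:78540635-78540693, plus strand: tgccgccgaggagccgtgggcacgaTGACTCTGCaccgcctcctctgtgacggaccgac

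The CCAAT box (CCAAT) was found in 38.0% of the proteasome windows and 34.6% of all windows, and the core of the interferon-γ activated site (TTCNNNGAA) in 16% and 7.66%. None of the printed ISRE cores overlapped an ARE core. A match describes the letters of a window and not a bound site.

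The libraries held between 49849257 and 75087193 counts. Levels are given as CPM, which are counts per 1000000 of the library total after TMM scaling, and changes as log2 fold change of treated over untreated cells (log2FC) ± standard error. More genes were detected after treatment in both cell lines, namely 17815 after 16079 in BT-16 cells, with 17114 after 15464 for CHLA-266. The proliferation marker *MKI67* had 1592 CPM before and 21.8 CPM after treatment in BT-16, and 1573 and 26.7 CPM in CHLA-266 (log2FC -6.03 ± 0.22, edgeR adjusted *p* = 1.92e-06). *TOP2A* and *PCNA*, which mark dividing cells too, were also downregulated (log2FC -4.98 and -2.35). *MYC* was counted at 207, 118, 187, and 144 CPM in the same order of libraries. *SMARCB1*, whose loss defines most AT/RT, was counted in all libraries, at 20.2, 17.0, 21.3, and 15.9 CPM. Of markers of leukocytes, *HLA-DRA* and *CD3E* were at 0 in all but treated BT-16 cells, which held 32 and 43 counts, and *CD68* was at 0 in both treated libraries. *PTPRC* had 287 counts before and 167 after treatment in BT-16, with 30 and 64 in CHLA-266, and *CD74* had 36 counts before and 6 after treatment in BT-16, with 49 and 6 in CHLA-266. *LYZ* had 3 counts before and 24 after treatment in BT-16, with 0 and 16 in CHLA-266. None of these 6 markers was called in edgeR.

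The RNA of the constitutive proteasome was lower after treatment in both cell lines. The 49 genes together took 0.624% of all BT-16 counts before treatment and 0.496% after it, and 0.622% and 0.476% of those of CHLA-266. By the quasi-likelihood test of edgeR, with *p* values adjusted after Benjamini and Hochberg, 23 of the 49 genes (46.9%) were downregulated at an adjusted *p* value under 0.05, against 19.1% of all 18066 genes tested. None was upregulated at this threshold, against 16.1% of all genes, and 1 was higher at an unadjusted *p* value under 0.05. When edgeR took the cell line as a block, 38 were downregulated (23.7% of all genes) and 1, *PSMB11*, was upregulated (17.9% of all genes). DESeq2 called 26 lower and 1 higher, against 19.3% and 22.5% of all genes. In 41 of the 49 genes both treated libraries lay below both untreated libraries, against 32.3% of all genes. The 49 genes had a median log2FC of -0.49, against 0.24 for all genes. In bulk samples, fewer cells of a type and less RNA per cell cannot be told apart. The part that the loss of *MKI67*, *TOP2A*, and *PCNA* had in these values was not tested. Without the untreated BT-16 library the median log2FC of the 49 genes was -0.47, against 0.29 for all genes. Without the untreated CHLA-266 library it was -0.57, against 0.22. In both fits fewer of the 49 genes, and a smaller share of all genes, were called lower.

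**Figure D1:**
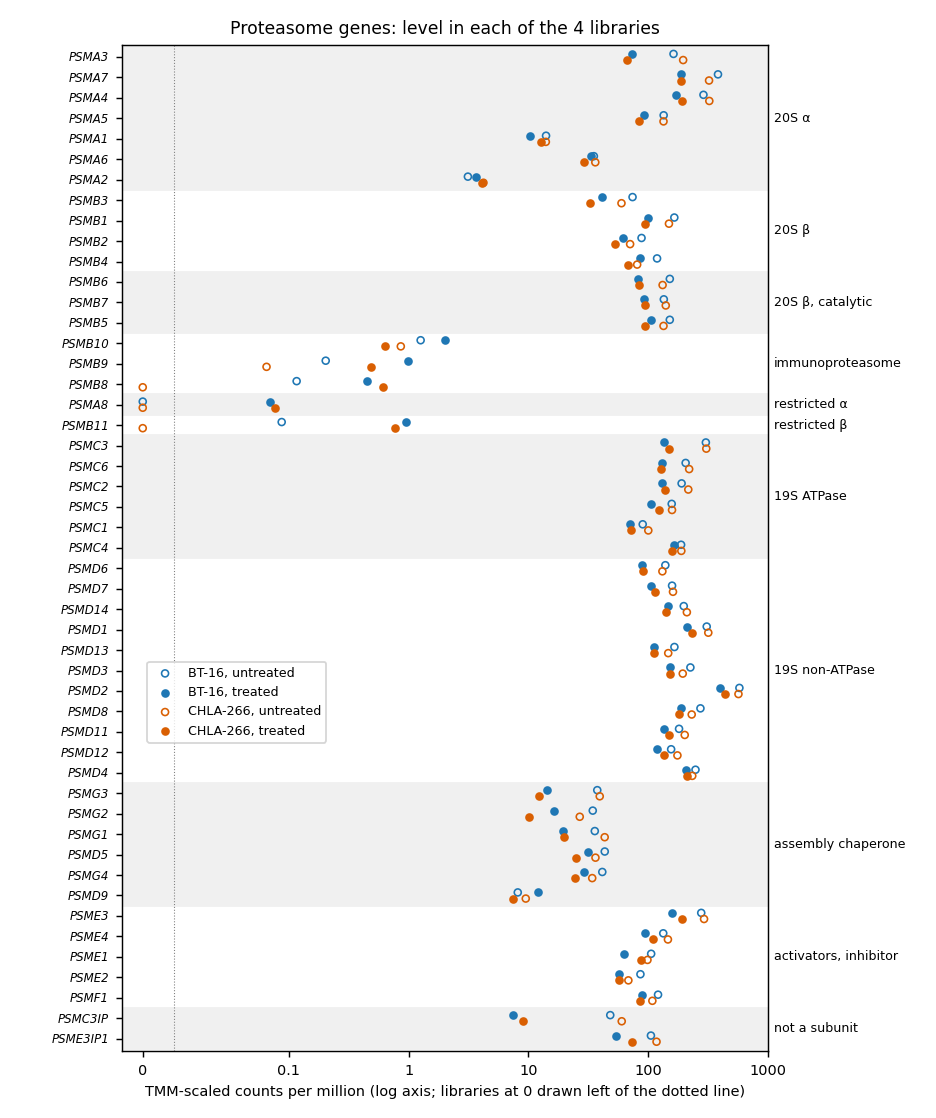
Level of the 49 proteasome genes in the 4 libraries, in CPM on a log axis, with libraries at 0 left of the dotted line. Open circles are untreated and filled circles treated cells, with BT-16 in blue and CHLA-266 in orange. In 41 genes both filled circles lie left of both open circles. The immunoproteasome and tissue-restricted subunits lie below the rest, with *PSMB10* the highest of them.

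Of the 14 constitutive core subunits, 9 were downregulated and none upregulated, against 19.1% and 16.1% of all genes. The block called 11 lower, against 23.7% of all genes. The levels of the 14 subunits summed to 1918 CPM before and 1148 CPM after treatment in BT-16, and to 1809 and 1103 CPM in CHLA-266. Among the 7 α subunits, 4 were downregulated. *PSMA3*, of the α ring (chr14:58244843-58272012, plus strand), had 164 CPM before and 73.8 CPM after treatment in BT-16, and 197 and 67.5 CPM in CHLA-266 (log2FC -1.35 ± 0.17, edgeR adjusted *p* = 6.89e-04). Both treated libraries lay far below both untreated libraries, and this was the largest fall of any core subunit. *PSMA7*, the α subunit of the highest level per kb of transcript, had 385 CPM before and 189 CPM after treatment in BT-16, and 325 and 190.1 CPM in CHLA-266 (log2FC -0.91 ± 0.17, edgeR adjusted *p* = 0.00438). *PSMA4*, whose protein helps to close the gate of the barrel, had 291 CPM before and 173 CPM after treatment in BT-16, and 326 and 194 CPM in CHLA-266 (log2FC -0.75 ± 0.16, edgeR adjusted *p* = 0.00921). The α subunit *PSMA5* had 135 CPM before and 93.4 CPM after treatment in BT-16, and 135 and 83.8 CPM in CHLA-266 (log2FC -0.61 ± 0.16, edgeR adjusted *p* = 0.0172). In each of these 4 genes the treated libraries did not overlap the untreated ones. *PSMA6* (35.4 CPM before and 33.3 CPM after treatment in BT-16, and 36.4 and 29.3 CPM in CHLA-266), *PSMA1*, and *PSMA2* were not called, with log2 fold changes of -0.20, -0.29, and 0.07 and adjusted *p* values of 0.4, 0.374, and 0.896 in edgeR.

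Of the 7 β subunits, 5 were downregulated and all 7 with the block, against 19.1% and 23.7% of all genes. The genes of all 3 catalytic sites were among the 5. *PSMB5*, which carries the chymotrypsin-like site and is the target of bortezomib, had 152 CPM before and 107 CPM after treatment in BT-16, and 135 and 94.7 CPM in CHLA-266 (log2FC -0.51 ± 0.16, edgeR adjusted *p* = 0.0386). *PSMB6*, the caspase-like site, had 153 CPM before and 82.4 CPM after treatment in BT-16, and 133 and 84.8 CPM in CHLA-266 (log2FC -0.77 ± 0.16, edgeR adjusted *p* = 0.00734). *PSMB7*, the trypsin-like site, had 136 CPM before and 92.0 CPM after treatment in BT-16, and 141 and 94.3 CPM in CHLA-266 (log2FC -0.57 ± 0.15, edgeR adjusted *p* = 0.02). No treated library reached an untreated one in these 3 genes. Of 13 alternative settings, *PSMB5* was called lower in 5, *PSMB6* in 12, and *PSMB7* in 8. With upper-quartile normalization none of the 3 was called (edgeR adjusted *p* = 0.433, 0.0566, and 0.25). Of the structural β subunits, *PSMB3* had 74.5 CPM before and 41.7 CPM after treatment in BT-16, and 60.2 and 33.0 CPM in CHLA-266 (log2FC -0.85 ± 0.19, edgeR adjusted *p* = 0.0103). *PSMB1* had 166 CPM before and 101 CPM after treatment in BT-16, and 150.0 and 93.8 CPM in CHLA-266 (log2FC -0.70 ± 0.16, edgeR adjusted *p* = 0.0103). *PSMB2* had 88.5 CPM before and 61.8 CPM after treatment in BT-16, and 71.1 and 53.4 CPM in CHLA-266 (log2FC -0.47 ± 0.18, edgeR adjusted *p* = 0.0671, and 0.0141 with the block). The levels of *PSMB4* were 119 CPM before and 86.0 CPM after treatment in BT-16, and 81.4 and 67.7 CPM in CHLA-266 (log2FC -0.39 ± 0.22, edgeR adjusted *p* = 0.191, and 0.0469 with the block). For *PSMB4* the treated BT-16 library lay above the untreated CHLA-266 library, so the conditions overlapped.

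**Figure D2:**
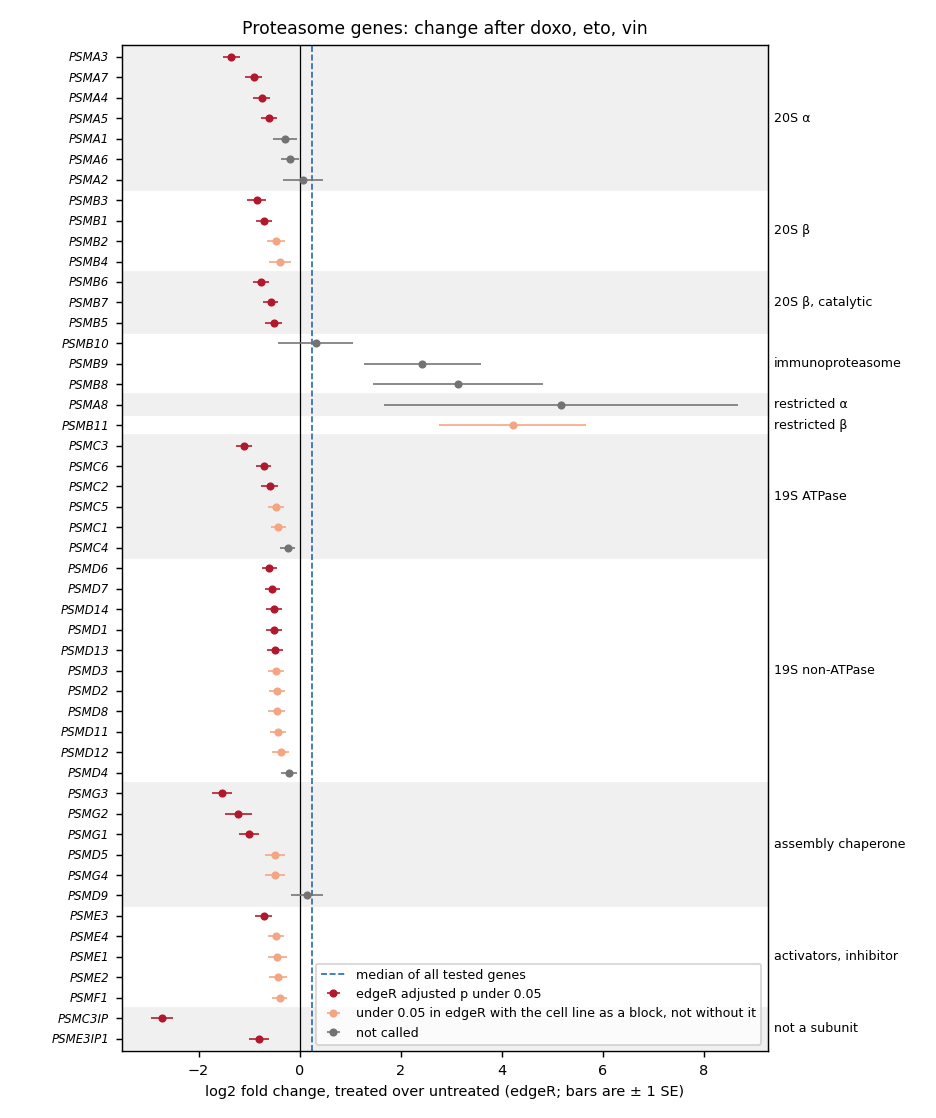
Log2 fold change of each of the 49 genes, treated over untreated, in edgeR with bars of 1 standard error either way, sorted within each group. The 23 genes in red were called lower, genes in light orange passed with the block but not without it, and the dashed line marks the median of all genes at 0.24. The core, 19S, and chaperone genes lie mostly left of 0, and the 5 immunoproteasome and tissue-restricted genes lie right of 0 with wide bars.

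Of the immunoproteasome subunits, *PSMB8* and *PSMB9* were barely detected in any library, and *PSMB10* was low but counted in every library. None of the 3 was called in either direction or had an unadjusted *p* value under 0.05 in edgeR. *PSMB8* (chr6:32840717-32844679, minus strand) and *PSMB9* (chr6:32844136-32859851, plus strand, GENCODE 44 on hg38) are neighbors whose ends overlap, and 17.3% of the exon bases of *PSMB8* lie opposite to exons of *PSMB8-AS1* or *PSMB9*. *PSMB8* had 8 counts before and 26 after treatment in BT-16, with 0 and 32 in CHLA-266 (log2FC 3.13 ± 1.69, edgeR adjusted *p* = 0.174). *PSMB9* had 14 counts before and 57 after treatment in BT-16, with 4 and 25 in CHLA-266 (log2FC 2.43 ± 1.16, edgeR adjusted *p* = 0.132). In both genes the treated libraries held more counts than the untreated libraries in both cell lines. *PSMB10* had 87 counts before and 116 after treatment in BT-16, with 53 and 33 in CHLA-266 (log2FC 0.32 ± 0.74, edgeR adjusted *p* = 0.749), and its ratio was higher in one cell line and lower in the other.

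Per kb of exon, each immunoproteasome subunit was set beside the constitutive subunit that it replaces. *PSMB8* amounted to 0.0339% of *PSMB5* in untreated BT-16 cells (exact Clopper-Pearson 95% interval 0.0146% to 0.0667%) and to 0.187% after treatment (0.122% to 0.275%). In CHLA-266 cells it was 0 of 8317 *PSMB5* counts before treatment, where 3 counts would give 0.0161%, and 0.289% after treatment (0.198% to 0.409%). *PSMB9* amounted to 0.0577% of *PSMB6* in untreated BT-16 cells (0.0315% to 0.0968%) and 0.519% in treated ones (0.392% to 0.673%). In CHLA-266 cells the share was 0.0212% (0.00578% to 0.0543%) before and 0.246% (0.159% to 0.364%) after treatment. *PSMB10* amounted to 1.02% of *PSMB7* in untreated BT-16 cells (0.817% to 1.26%) and 2.40% in treated ones (1.98% to 2.88%), and to 0.671% (0.502% to 0.878%) and 0.741% (0.509% to 1.04%) in CHLA-266 cells. The intervals of the treated and untreated library did not overlap for *PSMB8* and *PSMB9* in both cell lines and for *PSMB10* in BT-16. They overlapped for *PSMB10* in CHLA-266. Even after treatment, constitutive RNA thus exceeded immunoproteasome RNA in every pair and library. These intervals cover counting error only, and most counts from 1 to 20 were even (odd counts made up between 20.5% and 34.2% of them), so they are too narrow if both reads of a pair were counted.

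The 2 tissue-restricted core subunits were also higher in counts after treatment. *PSMB11*, the β subunit of thymic cortical epithelium, had 6 counts before and 55 after treatment in BT-16, with 0 and 40 in CHLA-266 (log2FC 4.21 ± 1.5, edgeR adjusted *p* = 0.0524, 0.0388 with the block). In CHLA-266 this is at least 15.8-fold higher against the floor of 3 counts. *PSMA8*, the α subunit of male germ cells, was at 0 in both untreated libraries and at 4 counts in both treated libraries.

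Reads over genes that these cells should not use were more numerous after treatment as well. Among 388 olfactory receptor genes, 124 had counts before and 300 after treatment in BT-16, with 92 and 214 in CHLA-266. Their 95th percentile was 4.10 counts per kb of exon before and 26.2 after treatment in BT-16, with 3.61 and 21.1 in CHLA-266. In the treated libraries, *PSMB8* had 7.47 and 9.20 counts per kb in BT-16 and CHLA-266, and *PSMB9* had 17.1 and 7.49, all under the 95th percentile of the olfactory receptor genes. *PSMB11* had 29.7 and 21.6 counts per kb and lay just above it. *PSMA8*, at 2.11 counts per kb in each, lay near or below the median of 4.05 and 1.32. *PSMB10* stood above all olfactory receptor genes in 3 libraries, at 53.5, 71.3, and 32.6 counts per kb, and in treated CHLA-266 cells it had 20.3 counts per kb, just under the 95th percentile. These values are per kb of all annotated exon bases, which were 3480 for *PSMB8* and 3338 for *PSMB9*. Their canonical transcripts hold 1124 and 1017 bases, and a comparison per kb of canonical transcript was not made. By all exon bases, the treated levels of *PSMB8* and *PSMB9* lay within the range of such reads. No change of these genes is read from their counts.

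**Figure D3:**
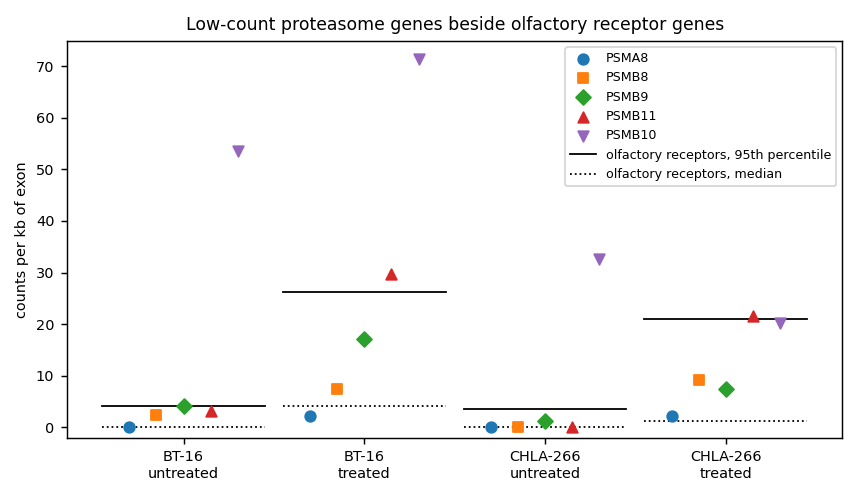
Counts per kb of exon of the 5 low-count proteasome genes in the 4 libraries. Lines mark the 95th percentile (solid) and the median (dotted) of 388 olfactory receptor genes in the same library. *PSMB8*, *PSMB9*, and *PSMA8* lie at or below the solid line after treatment, *PSMB11* lies just above it, and *PSMB10* lies clearly above it in 3 of the 4 libraries.

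Of 14 genes of interferon signaling and antigen processing, which act with the immunoproteasome, 3 were upregulated and none downregulated in edgeR, against 16.1% and 19.1% of all genes, and 4 and 2 were with the block, against 17.9% and 23.7%. The 3 of 14 higher lie near the share of all genes, so the genes are described one by one. *TAP1*, a transporter of peptides, had 17.0 CPM before and 44.1 CPM after treatment in BT-16, and 14.8 and 52.1 CPM in CHLA-266 (log2FC 1.60 ± 0.19, edgeR adjusted *p* = 5.72e-04). *TAPBP*, which loads peptides, had 5175 counts before and 6535 after treatment in BT-16, with 3284 and 6274 in CHLA-266 (log2FC 0.86 ± 0.19, edgeR adjusted *p* = 0.01). *STAT2*, of the interferon response, had 29.7 CPM before and 46.6 CPM after treatment in BT-16, and 25.6 and 56.0 CPM in CHLA-266 (log2FC 0.89 ± 0.18, edgeR adjusted *p* = 0.00729). These 3 genes were higher after treatment in both cell lines, at levels well above those of *PSMB8* and *PSMB9*.

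All 17 subunits of the 19S particle had negative log2 fold changes with TMM, and 8 of them were downregulated, against 19.1% of all genes. The block called 15 lower, against 23.7% of all genes. With upper-quartile normalization the values of *PSMC4* and *PSMD4* were 0.11 and 0.14. Their levels summed to 3790.0 CPM before and 2619 CPM after treatment in BT-16, and to 3786 and 2739 CPM in CHLA-266. Of the 6 ATPases, 3 were downregulated. *PSMC3* (chr11:47418769-47426473, minus strand) had 305 CPM before and 137 CPM after treatment in BT-16, and 308 and 149.8 CPM in CHLA-266 (log2FC -1.10 ± 0.16, edgeR adjusted *p* = 0.00138). This was the largest fall of any 19S subunit with a PSM symbol, and the treated libraries lay far below the untreated ones. *PSMC6* had 207 CPM before and 132 CPM after treatment in BT-16, and 221 and 129 CPM in CHLA-266 (log2FC -0.71 ± 0.16, edgeR adjusted *p* = 0.00906). *PSMC2* had 191 CPM before and 131 CPM after treatment in BT-16, and 218 and 140.3 CPM in CHLA-266 (log2FC -0.59 ± 0.16, edgeR adjusted *p* = 0.0217). In both genes the conditions did not overlap. *PSMC5* missed the threshold at a log2FC of -0.47 (edgeR adjusted *p* = 0.0502, and 0.0101 with the block). *PSMC1* had 90.5 CPM before and 71.4 CPM after treatment in BT-16, and 101 and 71.9 CPM in CHLA-266 (log2FC -0.42 ± 0.15, edgeR adjusted *p* = 0.0646, and 0.0255 with the block). *PSMC4* was not called in either fit, with 189.6 CPM before and 164 CPM after treatment in BT-16, and 190.4 and 159 CPM in CHLA-266 (log2FC -0.23 ± 0.15, edgeR adjusted *p* = 0.254, and 0.2 with the block). Along 83.2% of its canonical transcript, *PSMC1* lies opposite to exons of *NRDE2*, and it has 13 annotated pseudogenes, so its counts are uncertain.

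The 11 other 19S subunits moved within a narrow range, from -0.60 to -0.21 on the log2 scale. Of these, 5 were downregulated and 10 with the block, against 19.1% and 23.7% of all genes. *PSMD6* had 140.0 CPM before and 89.7 CPM after treatment in BT-16, and 132 and 90.4 CPM in CHLA-266 (log2FC -0.60 ± 0.15, edgeR adjusted *p* = 0.0173). *PSMD7*, which pairs with the deubiquitinase PSMD14, had 159 CPM before and 106 CPM after treatment in BT-16, and 162 and 115 CPM in CHLA-266 (log2FC -0.54 ± 0.15, edgeR adjusted *p* = 0.0274). *PSMD14* itself, the enzyme that strips ubiquitin chains from substrates, had 199.5 CPM before and 146 CPM after treatment in BT-16, and 212 and 143 CPM in CHLA-266 (log2FC -0.51 ± 0.15, edgeR adjusted *p* = 0.0336). In both genes the treated libraries lay below the untreated ones. *PSMD1*, a large scaffold subunit, had 310.3 CPM before and 213 CPM after treatment in BT-16, and 319.9 and 233 CPM in CHLA-266 (log2FC -0.50 ± 0.16, edgeR adjusted *p* = 0.0384). *PSMD13* had 167 CPM before and 111 CPM after treatment in BT-16, and 148 and 112 CPM in CHLA-266 (log2FC -0.49 ± 0.16, edgeR adjusted *p* = 0.0396). In all 5 the treated libraries lay below the untreated ones. *PSMD2*, *PSMD3*, *PSMD8*, and *PSMD11* had log2FC between -0.46 and -0.43 and were not called in edgeR without the block, but were with it. The smallest differences were those of the ubiquitin receptor gene *PSMD4* (-0.21, adjusted *p* = 0.308) and of *PSMD12* (-0.37, adjusted *p* = 0.105 in edgeR, 0.037 with the block). *PSMD4* had 17248 counts before and 12018 after treatment in BT-16, with 14463 and 10987 in CHLA-266, in libraries of unequal size.

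The 19S particle has 3 more subunits whose genes have no PSM symbol. *UCHL5*, a deubiquitinase of the particle, had 85.5 CPM before and 37.0 CPM after treatment in BT-16, and 106 and 42.2 CPM in CHLA-266 (log2FC -1.28 ± 0.18, edgeR adjusted *p* = 0.00113). *ADRM1*, which anchors UCHL5 and binds ubiquitin, had 121 CPM before and 69.9 CPM after treatment in BT-16, and 106 and 70.6 CPM in CHLA-266 (log2FC -0.69 ± 0.16, edgeR adjusted *p* = 0.011). *SEM1* had 90.7 CPM before and 92.6 CPM after treatment in BT-16, and 128 and 104 CPM in CHLA-266 (log2FC -0.15 ± 0.20, edgeR adjusted *p* = 0.547, and 0.488 with the block). Thus 2 of these 3 genes were downregulated, against 19.1% of all genes, and *SEM1* overlapped between the conditions.

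The ratio of the summed counts of the 14 core genes to those of the 17 19S genes was 0.506 before and 0.438 after treatment in BT-16, while CHLA-266 had 0.478 and 0.403. It was thus lower after treatment in both cell lines. The untreated values did not overlap the treated ones, and an exact permutation test of 2 libraries against 2 cannot give a two-sided *p* below 0.33. The median log2 fold change was -0.59 over the core genes and -0.47 over the 19S genes. This difference between the groups was not tested.

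The assembly chaperones contained the largest fall among the 47 proteasome genes. Of the 6 genes, 3 were downregulated and 5 with the block, against 19.1% and 23.7% of all genes. *PSMG3* (chr7:1567332-1571005, minus strand) had 37.8 CPM before and 14.3 CPM after treatment in BT-16, and 39.6 and 12.4 CPM in CHLA-266 (log2FC -1.53 ± 0.20, edgeR adjusted *p* = 7.34e-04). *PSMG2* had 34.6 CPM before and 16.3 CPM after treatment in BT-16, and 27.0 and 10.2 CPM in CHLA-266 (log2FC -1.21 ± 0.27, edgeR adjusted *p* = 0.00989). Its partner *PSMG1*, with which it starts the α ring, had 36.0 CPM before and 19.7 CPM after treatment in BT-16, and 43.6 and 20.0 CPM in CHLA-266 (log2FC -1.0 ± 0.19, edgeR adjusted *p* = 0.00502). No treated library overlapped an untreated one in these 3 genes. *PSMG4*, which pairs with PSMG3, had 41.6 CPM before and 29.3 CPM after treatment in BT-16, and 34.3 and 24.8 CPM in CHLA-266 (log2FC -0.49 ± 0.19, edgeR adjusted *p* = 0.0811, and 0.027 with the block). *PSMD5*, a chaperone of the 19S base, had 43.6 CPM before and 31.8 CPM after treatment in BT-16, and 36.5 and 25.2 CPM in CHLA-266 (log2FC -0.49 ± 0.20, edgeR adjusted *p* = 0.0846, and 0.0228 with the block). *PSMD9*, another chaperone of the base, had 8.18 CPM before and 12.1 CPM after treatment in BT-16, and 9.54 and 7.49 CPM in CHLA-266 (log2FC 0.14 ± 0.32, edgeR adjusted *p* = 0.738, and 0.781 with the block). It is the only chaperone whose treated and untreated libraries overlapped. *PSMG1* to *PSMG4* together amounted to 7.82% of the counts of the 14 core genes before and 6.94% after treatment in BT-16, and to 7.98% and 6.11% in CHLA-266. *POMP*, which matures the β ring and has no PSM symbol, had 115 CPM before and 97.5 CPM after treatment in BT-16, and 134 and 104 CPM in CHLA-266 (log2FC -0.31 ± 0.16, edgeR adjusted *p* = 0.163, and 0.0961 with the block). Of the 4 assembly factors without a PSM symbol, *POMP*, *PAAF1*, *AKIRIN2*, and *ECPAS*, none was called in edgeR, with or without the block, and none had an unadjusted *p* value under 0.05.

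Of the 5 activators and inhibitors, 1 was downregulated and all 5 with the block, against 19.1% and 23.7% of all genes. The 1 of 5 lower lies near the share of all genes. *PSME3*, which forms the nuclear activator PA28γ, had 279 CPM before and 159 CPM after treatment in BT-16, and 295 and 192 CPM in CHLA-266 (log2FC -0.71 ± 0.17, edgeR adjusted *p* = 0.0128). *PSME1* had 107 CPM before and 63.3 CPM after treatment in BT-16, and 99.2 and 88.3 CPM in CHLA-266 (log2FC -0.44 ± 0.19, edgeR adjusted *p* = 0.102, and 0.02 with the block). Its partner in the interferon-inducible activator, *PSME2*, had 86.7 CPM before and 57.7 CPM after treatment in BT-16, and 68.7 and 57.9 CPM in CHLA-266 (log2FC -0.43 ± 0.17, edgeR adjusted *p* = 0.0815, and 0.0303 with the block). Both were lower by more in BT-16 than in CHLA-266 cells, a difference that was not tested. For *PSME1*, the log2 ratio of treated to untreated cells was -0.75 in BT-16 cells (95% interval -0.81 to -0.69) and -0.17 in CHLA-266 cells (-0.22 to -0.11). *PSME4*, the activator PA200, had 134 CPM before and 94.4 CPM after treatment in BT-16, and 147 and 109.6 CPM in CHLA-266 (log2FC -0.46 ± 0.16, edgeR adjusted *p* = 0.054, and 0.0105 with the block). *PSMF1*, the inhibitor PI31, had 122 CPM before and 89.3 CPM after treatment in BT-16, and 109 and 86.1 CPM in CHLA-266 (log2FC -0.39 ± 0.16, edgeR adjusted *p* = 0.0779, and 0.0318 with the block). In contrast to *PSMB8* and *PSMB9*, *PSME1* and *PSME2* were thus well expressed in all libraries, although all of them but *PSMB9* hold the ISRE core printed above in their windows. *PSME2* has 6 annotated pseudogenes, and reads could have been split between them.

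Both genes whose proteins are not counted as parts of the proteasome were downregulated. *PSMC3IP*, a cofactor of homologous recombination, had 48.5 CPM before and 7.42 CPM after treatment in BT-16, and 60.5 and 9.06 CPM in CHLA-266 (log2FC -2.72 ± 0.22, edgeR adjusted *p* = 5.16e-05), the largest fall of the 49 genes. *PSME3IP1*, which binds PSME3, had 106 CPM before and 54.1 CPM after treatment in BT-16, and 118 and 74.2 CPM in CHLA-266 (log2FC -0.80 ± 0.19, edgeR adjusted *p* = 0.0127). Without both genes, 21 of the 47 proteasome genes were called lower, and their median log2 fold change was -0.47.

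The 2 cell lines gave similar values for the constitutive genes. Of the 49 genes, 42 had a lower level after treatment in BT-16 and 45 in CHLA-266, with median log2 ratios of -0.54 and -0.46. Over the 28 core and 19S genes whose canonical transcript no other gene of the same strand covers, the ratios in both cell lines had a Spearman correlation of 0.741 and a Pearson correlation of 0.844. These points are genes of the same 4 libraries, scaled together, and are not independent replicates. The absolute difference between the cell lines had a median of 0.12 and a maximum of 0.40 on the log2 scale in these 28 genes. Their log2 fold changes ranged from -1.35 to -0.21 with a standard deviation of 0.25, against a median standard error of 0.16. The log2FC was lower in shorter transcripts, with a Spearman correlation of log2 fold change and transcript length of 0.365 over the 28 genes and of 0.155 over 12577 genes that had 10 or more counts in each library.

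**Figure D4:**
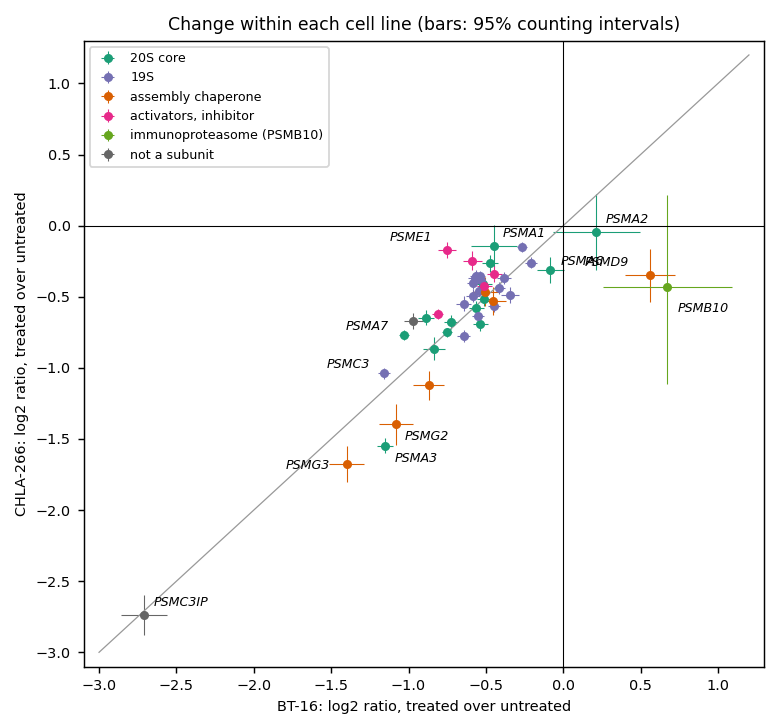
Log2 ratio of treated to untreated cells within BT-16 (horizontal axis) and within CHLA-266 (vertical axis) for the 45 proteasome genes of 10 or more counts in each library, colored by group, with exact 95% counting intervals and the diagonal of equal change. Most genes lie near the diagonal below 0 in both cell lines. *PSMA2*, *PSMB10*, and *PSMD9* lie right of 0 in BT-16 and below 0 in CHLA-266.

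No gene was called between the cell lines. In edgeR with treatment and cell line in the model, 0 of the 49 genes were called between CHLA-266 and BT-16, against 2.3% of all genes, and 2 had an unadjusted *p* value under 0.05. DESeq2 also called 0. With upper-quartile normalization 1 was called, *PSMB4*, which was lower in CHLA-266 (log2 difference -0.46, adjusted *p* = 0.0497 in edgeR). A *p* value over the threshold does not show that the cell lines express these genes alike.

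In 5 genes at least 25% of the canonical transcript lies in exons of another annotated gene of the same strand (GENCODE 44 on hg38). These were *PSMA2* with 100% of its bases, *PSMA6* with 81.4%, *PSMA1* with 67.0%, *PSMB10* with 56.1%, and *PSMD9* with 28.8%. These genes were singled out with their values known. For *PSMA2* the treated and untreated libraries overlapped, while for *PSMA1* the treated libraries lay below the untreated ones without passing the test (log2FC -0.29, edgeR adjusted *p* = 0.374). Their mean untreated levels lay between 1.09 and 35.1 CPM per kb of transcript, with a median of 3.25. Those of the 28 other core and 19S genes lay between 18.0 and 369 CPM per kb, with a median of 104. None of the 5 was called with or without the block, and all 23 genes called lower were among the other 44. The 3 genes whose direction differed between the cell lines, *PSMA2*, *PSMB10*, and *PSMD9*, were all among the 5. How reads in overlapping genes were counted is not stated in the sources used here, and the part of the overlap in these values was not tested.

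Of the regulators of proteasome genes, 4 of 12 were upregulated and 2 downregulated in edgeR, against 16.1% and 19.1% of all genes. *NFE2L1* itself had 457 CPM before and 706 CPM after treatment in BT-16, and 410.4 and 887 CPM in CHLA-266 (log2FC 0.88 ± 0.18, edgeR adjusted *p* = 0.00756), and was higher in both cell lines while most constitutive subunit genes were lower. The small MAF proteins are its partners on DNA. *MAFF* had 9.19 CPM before and 40.0 CPM after treatment in BT-16, and 12.5 and 52.5 CPM in CHLA-266 (log2FC 2.09 ± 0.24, edgeR adjusted *p* = 4.03e-04). *MAFG* had 43.0 CPM before and 65.0 CPM after treatment in BT-16, and 43.0 and 70.4 CPM in CHLA-266 (log2FC 0.65 ± 0.16, edgeR adjusted *p* = 0.0133). *MAFK*, the third small MAF gene, was not called, with 6.90 CPM before and 8.11 CPM after treatment in BT-16, and 10.9 and 14.6 CPM in CHLA-266 (log2FC 0.35 ± 0.36, edgeR adjusted *p* = 0.46, and 0.33 with the block). The levels of *MAFF* and *MAFG* were higher after treatment in both cell lines. *FBXW7*, a substrate receptor that marks NFE2L1 for breakdown, had 70.9 CPM before and 112 CPM after treatment in BT-16, and 76.7 and 109 CPM in CHLA-266 (log2FC 0.58 ± 0.15, edgeR adjusted *p* = 0.019). *NFE2L2* (NRF2), a relative that also binds ARE, had 334 CPM before and 446 CPM after treatment in BT-16, and 295 and 369.5 CPM in CHLA-266 (log2FC 0.38 ± 0.17, edgeR adjusted *p* = 0.123, and 0.0397 with the block). *KEAP1*, which holds NFE2L2 in check, had 89.4 CPM before and 31.7 CPM after treatment in BT-16, and 74.0 and 30.3 CPM in CHLA-266 (log2FC -1.40 ± 0.17, edgeR adjusted *p* = 5.89e-04). *NFE2L3*, a further relative, had 36.0 CPM before and 15.8 CPM after treatment in BT-16, and 34.4 and 16.5 CPM in CHLA-266 (log2FC -1.12 ± 0.19, edgeR adjusted *p* = 0.00277). The levels of *KEAP1* and *NFE2L3* were lower in both treated libraries. *DDI2*, the protease that releases NFE2L1, and *NGLY1*, which removes its glycans, were not called, with log2 fold changes of -0.39 (adjusted *p* = 0.147 in edgeR, 0.04 with the block) and -0.04 (adjusted *p* = 0.854 in edgeR).

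The size of the fall depended on the scaling of the libraries. With TMM the median log2FC was 0.24 over all genes and -0.49 over the 49 genes. It was 0.31 and -0.42 with the size factors of DESeq2, 0.46 and -0.25 with library totals, and 0.59 and -0.13 with the upper quartile. The 49 genes thus lay -0.73, -0.72, -0.72, and -0.72 from all genes in these 4 scalings. With upper-quartile normalization 7 of the 49 genes were downregulated (10.5% of all genes). When the test was limited to genes of 10 or more counts in each library, the median of all genes was 0.01 and that of the 45 proteasome genes left was -0.31, and 14 of the 45 (31.1%) were downregulated against 20.2% of all genes. The distance from all genes was then -0.31 in place of -0.73. *PSMA3*, *PSMA7*, *PSMC3*, *PSMG1*, *PSMG3*, and *PSMC3IP* were called lower in all 13 alternatives. All 23 genes called lower kept a negative value in them.

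**Figure D5:**
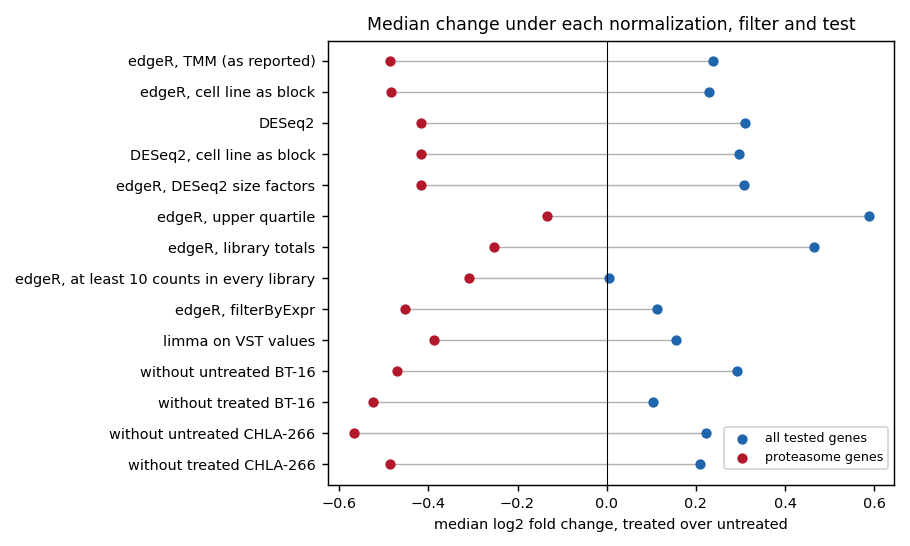
Median log2 fold change of all genes tested (blue) and of the proteasome genes (red) under each normalization, filter, test, and left-out library. The red points lie below 0 in every setting, from -0.57 to -0.13. The distance to the blue points is -0.73 as reported and -0.31 among genes of 10 or more counts in each library.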

How the data were processed

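RNA of the 4 libraries was reverse transcribed and amplified with a stranded kit and sequenced with paired ends. Per the labels and the methods, the authors demultiplexed with bcl2fastq 2.20, trimmed adapters, used STAR for alignment to hg38, and removed repeatedly counted genes and genes of the sex chromosomes. The deposited values are estimated counts per gene symbol without normalization, of which 5 values in 2 genes were rounded here. The deposited log2 values were made by the authors with DESeq2's variance-stabilizing transformation (VST) for 17553 genes. The annotation, the strand setting, and the treatment of overlapping genes are not given in the sources used here. No column of values was left out.

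Symbols with a total of 0 (383) were left out. The remaining 18066 genes were tested with edgeR 4.0.16 in R 4.3.3 (TMM, quasi-likelihood test, threshold 0.05), with treatment as the only term. The cell line pairs the libraries. As a check of the pairing, deviations of the 2 libraries of a cell line had a correlation of 0.263 across 12620 genes. The separate culture of the samples is not stated beyond the cell line, so *p* values measure the spread between these libraries. As alternatives, the cell line was added as a block, and DESeq2 1.42.0, limma 3.58.1 on VST values, 3 normalizations, 2 filters, and the removal of each library were tried. Within a cell line, 0.5 counts were added for the log2 ratio, with exact Clopper-Pearson 95% intervals. The floor was 3 counts per library. Intervals and floors cover counting error only. Exon lengths came from GENCODE 44 (18357 symbols matched). The members and lists were chosen with earlier results of these data known. The genes named were the catalytic, immunoproteasome, tissue-restricted, and activator subunits, the 2 lowest and highest of each other group, genes called in groups with at most 8 calls, and called or regulatory genes of the pathway. Genes named otherwise are said to be chosen after their values were seen, or are given to account for a group.

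On simulated counts with a log2 fold change of 1 and the same means in both cell lines, edgeR recovered 35 of 200 changed genes among 18041 (33 with the block). With a log2 fold change of 2 it recovered 200 of 200 among 18040. With the means of each cell line it recovered 0 and the block 199 of 200 among 18064. The simulation used a fixed dispersion below the common value fitted to the data (0.14, and 0.07 with the block). Differences between the cell lines were capped in it. It therefore does not give the power of the tests on these data. Genes that were not called are not shown to be unchanged. Values of a few genes of the pathway and marker lists are not reported here.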

Additional observations from a re-analysis of the deposited data

Results flagged for a closer look

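The log2 ratio of treated to untreated cells had opposite signs in the 2 cell lines for 3 genes. It was 0.214 in BT-16 cells (95% interval -0.07 to 0.49) and -0.043 in CHLA-266 cells (-0.31 to 0.22) for *PSMA2*. For *PSMB10*, an immunoproteasome subunit, it was 0.67 in BT-16 cells (95% interval 0.26 to 1.09) and -0.43 in CHLA-266 cells (-1.11 to 0.21). For the 19S chaperone *PSMD9*, it was 0.56 in BT-16 cells (95% interval 0.40 to 0.72) and -0.35 in CHLA-266 cells (-0.54 to -0.16). The intervals lay on opposite sides of 0 for *PSMD9* alone and cover counting error only. With 1 library per cell line and condition, the difference between the cell lines was not tested. All 3 genes share exon bases with another gene of the same strand.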

How the results depend on the processing

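Of the 49 genes, 23 were called lower. The count was 38 with the cell line as a block, 7 with upper-quartile normalization, 14 with library totals, and 14 with at least 10 counts in every library, and leaving out 1 library gave 10 to 22. It stayed within 1.5 times in DESeq2, with DESeq2's size factors, with the filter of edgeR, with limma, and, as settings added after seeing the data, without the 5 overlapped genes (23) and without the 2 genes that are no subunit (21). No gene was called higher, and *PSMB11* was the 1 gene called higher with the block, in DESeq2 with and without it, with each of the 3 other normalizations, with the filter of edgeR, in limma, and in 1 of the 4 fits that left out a library (0 to 1). The median log2 fold change of -0.49 was -0.42 in DESeq2 (-0.42 with the block) and with its size factors, -0.13 with upper-quartile normalization, -0.25 with library totals, -0.31 with at least 10 counts, -0.39 in limma, and -0.57 to -0.47 when 1 library was left out. With *PSMA8* at its bound it was -0.49. The number of genes that differ between the cell lines was 0, and 1 with upper-quartile normalization. Values turned in sign with upper-quartile normalization for *PSMA1* (0.057), *PSMA6* (0.15), *PSMC4* (0.11), and *PSMD4* (0.14), and with library totals for *PSMA6* (0.036) and *PSMD4* (0.018). When 1 library was left out, the log2FC ranged from -0.13 to 0.30 for *PSMA2*, from -0.74 to 0.93 for *PSMB10*, and from -0.24 to 0.46 for *PSMD9*. The replicate block turned none. The causes were not tested. The alternative of coding length for the immunoproteasome ratios was not run, because no protein table was used here. Low counts limit what can be said of *PSMA8*, *PSMB8*, *PSMB9*, and *PSMB11*.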

Other observations

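Of 19 genes of ubiquitin receptors, shuttle factors, and associated enzymes, 4 were downregulated and none upregulated in edgeR, against 19.1% and 16.1% of all genes, and 10 and 1 were with the block, against 23.7% and 17.9%. The 4 of 19 lower lie near the share of all genes, and 5 of the 19 had a positive log2 fold change. *RAD23B*, which carries ubiquitinated proteins to the proteasome, had a log2 fold change of -0.63 (adjusted *p* = 0.018 in edgeR). *UFD1* and *FAF1*, cofactors of the segregase VCP, had log2 fold changes of -0.55 and -0.70 (adjusted *p* = 0.0261 and 0.011 in edgeR).

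*RPS27A*, which encodes ubiquitin fused to a ribosomal protein, had 713 CPM before and 459 CPM after treatment in BT-16, and 682 and 414 CPM in CHLA-266 (log2FC -0.68 ± 0.16, edgeR adjusted *p* = 0.0139). *UBA6*, an enzyme that activates ubiquitin, had 106 CPM before and 55.0 CPM after treatment in BT-16, and 114 and 76.7 CPM in CHLA-266 (log2FC -0.74 ± 0.19, edgeR adjusted *p* = 0.0182). Both genes were lower in both treated libraries. *UBB*, a further ubiquitin gene, was not called, with a log2 fold change of -0.28.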
